A study of Mus musculus with 9 samples.

Results

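Transcripts of the nuclear-encoded subunits of respiratory complexes II, III, IV and V were followed in 9 hearts of 2 month old mice, 3 of each genotype, with 1 array per heart. The genotypes were wild type, Col4a3-/- and Col4a3-/-OPN-/-. Col4a3-/- mice lack a chain of the type IV collagen of basement membranes and are used as a model of Alport syndrome, and Col4a3-/-OPN-/- mice lack osteopontin (OPN, a secreted glycoprotein encoded by Spp1) as well, so both mutant groups share the loss of Col4a3. The labels give neither strain nor sex, and they do not say whether the hearts were whole or how they were cut. The series title names osteopontin and mitochondria as drivers of heart failure with preserved ejection fraction in this mouse, which is the question the subunit transcripts bear on. The members were the genes whose probe sets carry a single symbol equal to Sdha, Sdhb, Sdhc, Sdhd or Cyc1, or starting with Uqcr, Cox4, Cox5, Cox6, Cox7, Cox8 or Atp5. This took 54 of 23521 probe sets with 1 symbol and gave 48 genes, each represented by its probe set with the highest mean. Of these, 43 passed the filter on dim signal (a mean over the 9 hearts above 5.21 log2 units, the median of all probe sets): 4 genes of complex II, 8 of complex III, 15 of complex IV and 16 of complex V.

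Succinate dehydrogenase (complex II) feeds electrons from the tricarboxylic acid cycle into the ubiquinone pool, the cytochrome bc1 complex (complex III) passes them to cytochrome c, and cytochrome c oxidase (complex IV) passes them to oxygen. The proton gradient built on the way drives ATP synthase (complex V). Heart muscle is densely packed with mitochondria and makes most of its ATP this way, and for several small subunits of complex IV it uses a muscle isoform beside, or in place of, the isoform found in most tissues. The members were chosen by their symbols, so the symbols are no check on the label of the gene set, and the label has exceptions. Uqcrh-ps1 and Atp5c1-ps are pseudogenes, and Cox7a2l is a relative of the complex IV subunit Cox7a2 that is linked to supercomplexes.

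The values were log2 signals summarized by RMA, per the submitters' processing notes, and the values of a genotype are given in the order of replicates 1 to 3. A value after ± is an SD (n = 3 hearts). Levels of different genes are not compared, because probe sets differ in brightness for reasons of their own. The samples are tissue, so fewer cells of a type and less RNA per cell cannot be told apart. Cardiomyocyte markers were bright in every heart (mean over 12 genes between 11.41 and 11.84). Hearts of 1 genotype differed in other markers. Xist was high in Col4a3-/- replicates 1 and 3 and in Col4a3-/-OPN-/- replicate 2 (7.59, 8.50 and 8.56, against 4.52 to 4.77 in the other 6), and the mean of 3 Y-linked genes was low in the same hearts, so 0 wild type, 2 Col4a3-/- and 1 Col4a3-/-OPN-/- hearts had a female pattern. The mean of 6 atrial markers was 8.70 and 8.90 in Col4a3-/- replicates 1 and 3 and 9.97 to 10.41 in the other hearts. Brown fat markers, whose tissue is also rich in respiratory subunits, had a mean over 4 genes of 9.09 in Col4a3-/- replicate 2 and 5.72 to 7.39 elsewhere, and 6 markers of endothelial activation and acute phase had 9.49 in Col4a3-/- replicate 3 and 6.36 to 7.26 elsewhere.

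No subunit gene of complexes II to V passed the test in any comparison of genotypes. With limma (1 fit over all 9 hearts, with Benjamini-Hochberg adjustment over the 13650 probe sets tested), 0 of 43 members were called in Col4a3-/- against wild type, where 0% of all tested probe sets were called. In Col4a3-/-OPN-/- against Col4a3-/- hearts 0 of 43 were called (0.044% of all), and in Col4a3-/-OPN-/- against wild type 0 of 43 (0% of all). At an unadjusted p under 0.05 there were 2 members in the first comparison (4.65%, against 8.35% of all tested probe sets), 5 in the second (11.6%, against 13.6%) and 0 in the third (against 3.68%, made up of 1.89% higher and 1.79% lower). Without regard to direction, each of these shares was below that of all tested probe sets. The 2 members of the first comparison were Cox8a, which was higher (against 2.39% of all), and Sdhc, which was lower (against 5.96%). The 5 of the second were Atp5g2, Uqcr11, Cox7b, Cox8a and Cox6a1, and all were lower (11.6%, against 5.03% of all that were lower). Groups without overlap were found at 4 members in the first comparison (9.3%, against 12.5% of all), 4 in the second (9.3%, against 16.5%) and 5 in the third (11.6%, against 13.2%), again no larger a share than over all probe sets. By direction, 3 members lay wholly above wild type in Col4a3-/- hearts (Cox4i1, Cox8a and Uqcrq, against 4.58% of all) and 1 wholly below (Sdhc, against 7.9%). Between the mutant genotypes 1 member lay wholly above in Col4a3-/-OPN-/- hearts (Sdhc, against 10.1%) and 3 wholly below (Atp5g2, Cox8a and Uqcr11, against 6.48%). Against wild type, 2 members lay wholly above in Col4a3-/-OPN-/- hearts (Atp5a1 and Uqcrh, against 7.55%) and 3 wholly below (Atp5g2, Cox8b and Uqcrc1, against 5.65%). The smallest adjusted p of any member was 0.564, 0.303 and 0.999 in the 3 comparisons.

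The median over the 43 members was 0.0080 log2 units in Col4a3-/- minus wild type (range -0.24 to 0.23), where the median over all tested probe sets was -0.023. It was -0.017 (range -0.41 to 0.19) in Col4a3-/-OPN-/- minus Col4a3-/- hearts, beside 0.043 over all, and -0.035 (range -0.37 to 0.29) in Col4a3-/-OPN-/- minus wild type, beside 0.011. The 95% interval of the difference lay within 0.5 log2 units (1.41-fold) either way for 38, 36 and 38 of the 43 members. Over all tested probe sets that held for 57.7%, 52.6% and 63.9%. No member's interval reached 1 log2 unit (2-fold) in any comparison, and the widest bound was 0.78, for Cox7b in Col4a3-/-OPN-/- minus Col4a3-/- hearts. A p above the threshold does not show that the genotypes are alike.

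**Figure D1:**
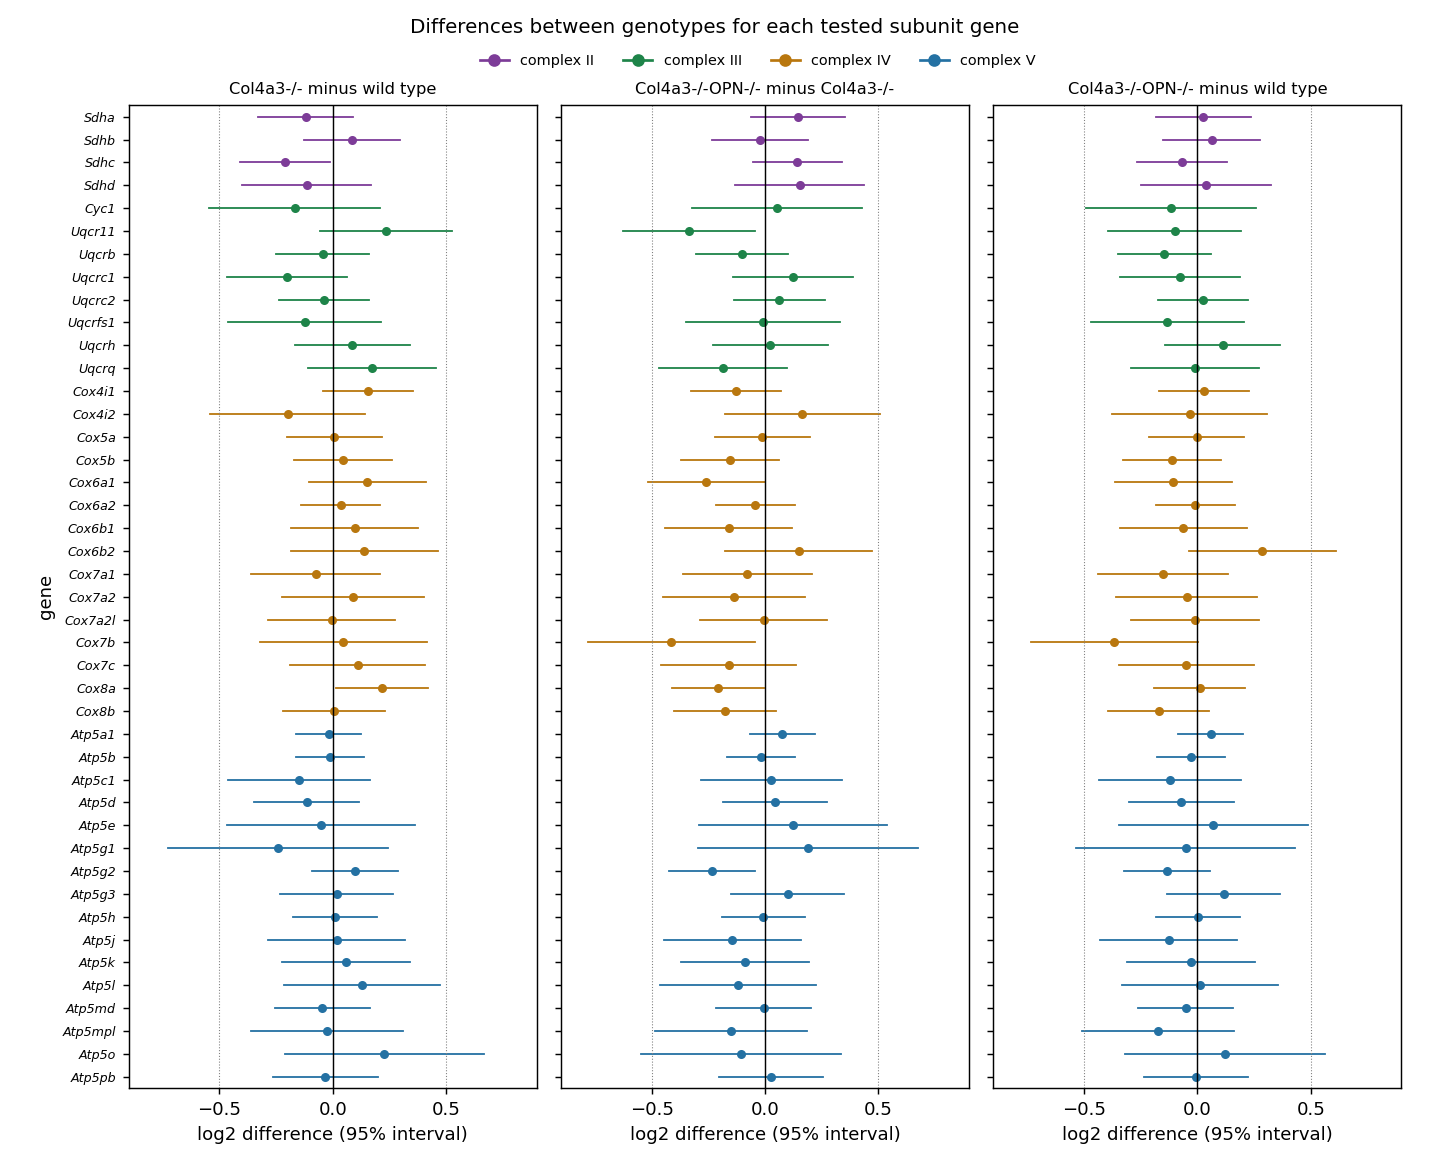
Log2 difference (point) and its 95% interval (line) for each of the 43 tested subunit genes in 3 comparisons of genotypes, 3 hearts per genotype; colours mark the complex and dotted lines mark 0.5 either way. Most intervals cross 0 and stay within the dotted lines, and the one reaching farthest is that of Cox7b in the middle panel.

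Among the 9 hearts, 1 was high across complexes III, IV and V and another was low at many of the same genes. Col4a3-/- replicate 1 had the highest signal of the 9 hearts at 25 of 43 members (58.1%), although it was the highest at 14.3% of all tested probe sets. It lay above the gene's mean over all hearts at 41 of 43, against 45.7% of all tested probe sets. Col4a3-/-OPN-/- replicate 1 was the lowest at 15 members (34.9%, against 9.53% of all probe sets) and lay above the mean at 7. Col4a3-/- replicate 3 was the lowest at 13 (30.2%), close to its 26.1% over all probe sets. That heart was the highest at only 1 member (2.33%, against 21.3% of all). It lay above the mean at 11 of 43, against 47.9% of all probe sets. The mean deviation over the 43 members was 0.19, -0.043 and -0.096 in the Col4a3-/- hearts in replicate order. It was -0.12, 0.018 and 0.018 in the Col4a3-/-OPN-/- hearts, and -0.0068, 0.038 and 0.00040 in the wild type hearts. The wild type hearts lay within a narrow band, the Col4a3-/- hearts reached above and below it, and 1 Col4a3-/-OPN-/- heart lay under it. The median SD of a member within a genotype was 0.079 in wild type, 0.15 in Col4a3-/- and 0.095 in Col4a3-/-OPN-/- hearts, against 0.12, 0.21 and 0.14 over all tested probe sets.

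Col4a3-/- replicate 1 shares its high Xist and low atrial signal with Col4a3-/- replicate 3, in which the members were low, and its high Xist with Col4a3-/-OPN-/- replicate 2, in which they were near their mean. Its cardiomyocyte markers deviated by -0.0023 on average, while those of Col4a3-/- replicate 3 deviated by -0.28 and those of Col4a3-/-OPN-/- replicate 1 by 0.14. In Col4a3-/- replicate 2, the heart with the high brown fat signal, the members averaged -0.043. The part of sex, atrial tissue, fat and inflammation in these deviations was not tested, and single hearts that differ in several markers cannot tell them apart. Leaving out 1 heart turned the sign of the member medians of both comparisons that use the Col4a3-/- hearts. Without Col4a3-/- replicate 1 the member median of Col4a3-/- minus wild type was -0.069 and without Col4a3-/- replicate 3 it was 0.060. In Col4a3-/-OPN-/- minus Col4a3-/- hearts the corresponding medians were 0.076 and -0.086.

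**Figure D2:**
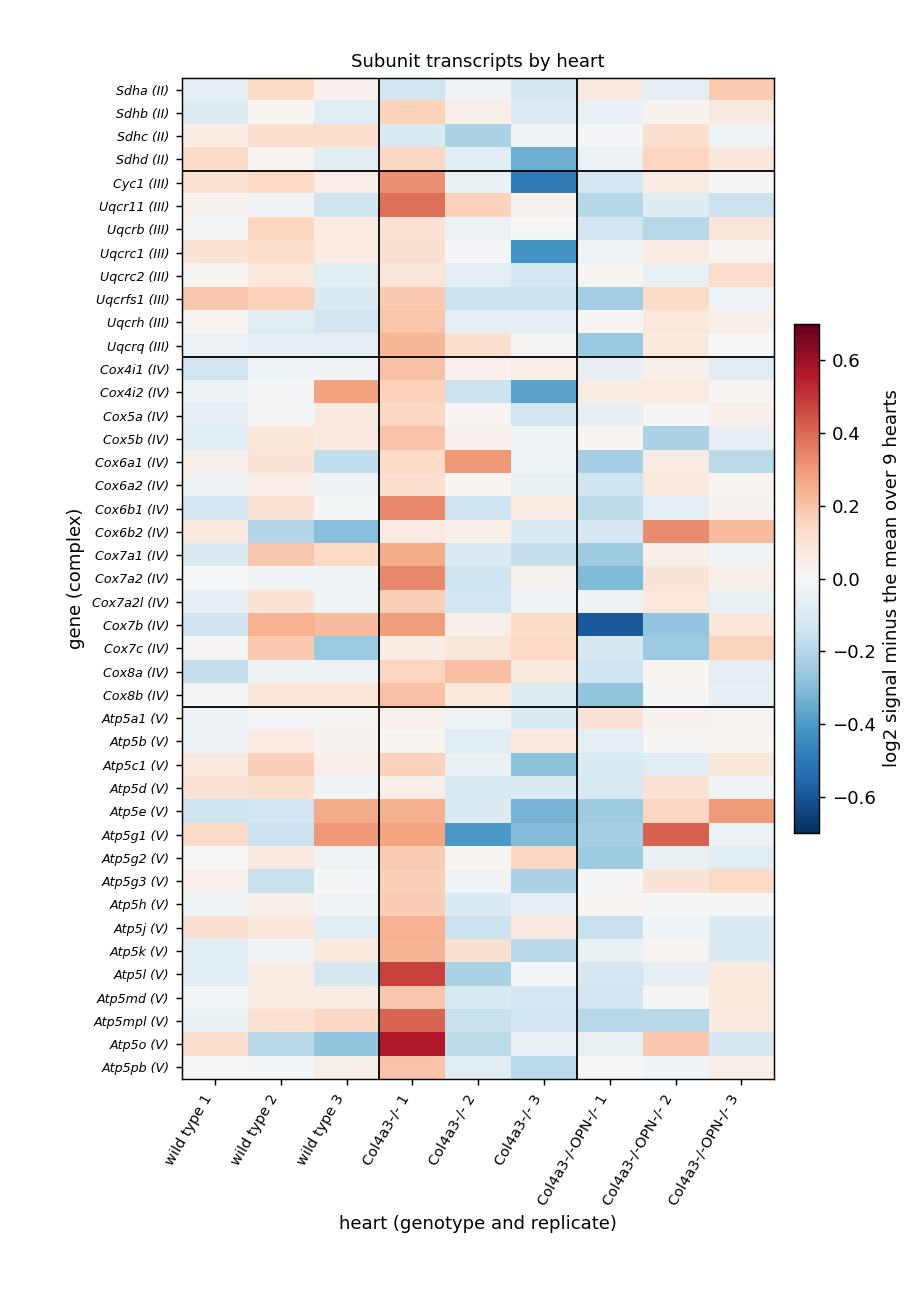
Log2 signal of the 43 tested subunit genes (rows, grouped by complex) in each of the 9 hearts (columns), as the deviation from the gene's mean over all hearts. The column of Col4a3-/- replicate 1 is red at 41 of 43 genes, and that of Col4a3-/-OPN-/- replicate 1 is mostly blue.

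Complex II, the only one of the complexes that also belongs to the tricarboxylic acid cycle, had 4 measured genes, which averaged 0.020 from their means in Col4a3-/- replicate 1, while complexes III, IV and V averaged 0.20, 0.19 and 0.22. The median log2 difference over the 4 genes was -0.12 in Col4a3-/- minus wild type and 0.14 in Col4a3-/-OPN-/- minus Col4a3-/- hearts. These comparisons share the Col4a3-/- hearts, so a low value there enters both. Over the hearts left out, the former ranged from -0.16 (without Col4a3-/- replicate 1) to -0.047 (without Col4a3-/- replicate 3), and the latter was 0.079 without Col4a3-/- replicate 3. Sdhc, a membrane anchor that holds the heme of the complex, had 11.13, 11.19 and 11.19 in wild type, 10.98, 10.86 and 11.05 in Col4a3-/- and 11.07, 11.19 and 11.05 in Col4a3-/-OPN-/- hearts. All 3 Col4a3-/- hearts lay below all hearts of both other genotypes, although the gap to the nearest Col4a3-/-OPN-/- heart was small (11.048 against 11.054). The log2 difference of Col4a3-/- minus wild type was -0.21 (SE 0.090, 95% interval -0.41 to -0.013, limma adjusted p = 0.573), which did not pass over all genes, and that of Col4a3-/-OPN-/- minus Col4a3-/- was 0.14 (SE 0.090, 95% interval -0.055 to 0.34, limma adjusted p = 0.519) and 0.092 without Col4a3-/- replicate 2. The catalytic flavoprotein gene Sdha had 11.36, 11.56 and 11.45 in wild type, 11.30, 11.40 and 11.31 in Col4a3-/- and 11.49, 11.36 and 11.60 in Col4a3-/-OPN-/- hearts. Its Col4a3-/- mean was 11.34 ± 0.057 against 11.46 ± 0.10 in wild type and 11.48 ± 0.12 in Col4a3-/-OPN-/- (n = 3 each), and the groups overlapped. Sdhd, the other anchor, was at -0.12 and 0.15 in the same comparisons (limma adjusted p = 0.833 and 0.632). Those values were 0.011 and 0.027 without Col4a3-/- replicate 3. The iron-sulfur protein gene Sdhb was at 0.085 and -0.023 (0.836 and 0.939).

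Complex III had 8 tested genes, and none passed. Cyc1, which encodes cytochrome c1, had 10.53, 10.57 and 10.47 in wild type, 10.74, 10.38 and 9.93 in Col4a3-/- and 10.30, 10.48 and 10.44 in Col4a3-/-OPN-/- hearts. Col4a3-/- replicate 1 was the highest and Col4a3-/- replicate 3 the lowest of the 9 hearts, and the SD of 0.41 in Col4a3-/- hearts was the largest of any member in that genotype. The log2 difference to wild type was -0.17 (SE 0.17, 95% interval -0.54 to 0.21, limma adjusted p = 0.816). It was -0.36 without Col4a3-/- replicate 1 and 0.042 without Col4a3-/- replicate 3. Uqcrc1, a core protein of the complex, had 12.01, 12.04 and 11.97 in wild type, 12.02, 11.91 and 11.49 in Col4a3-/- and 11.89, 11.97 and 11.93 in Col4a3-/-OPN-/- hearts, with Col4a3-/- replicate 3 alone far below. Without Col4a3-/- replicate 1, Cyc1 had the smallest adjusted p of any member in that comparison (0.259).

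Uqcr11, a small subunit at the edge of complex III, had 7.64, 7.59 and 7.47 in wild type, 7.99, 7.77 and 7.63 in Col4a3-/- and 7.41, 7.52 and 7.46 in Col4a3-/-OPN-/- hearts. Col4a3-/- hearts averaged 7.80 ± 0.18, wild type 7.56 ± 0.085 and Col4a3-/-OPN-/- 7.46 ± 0.057 (n = 3 each). The Col4a3-/-OPN-/- hearts lay below all Col4a3-/- hearts, at a log2 difference of -0.34 (SE 0.13, 95% interval -0.63 to -0.043, limma adjusted p = 0.321), and the difference of Col4a3-/- from wild type was 0.23 (SE 0.13, 95% interval -0.058 to 0.53, limma adjusted p = 0.660). The difference from wild type was 0.14 without Col4a3-/- replicate 1. Uqcrq, another small subunit, was at 0.17 and -0.18 in the same comparisons (limma adjusted p = 0.738 and 0.559). The core protein gene Uqcrc2 (-0.038 and 0.062), the Rieske protein gene Uqcrfs1 (-0.12 and -0.0094), Uqcrb (-0.044 and -0.10) and the hinge protein gene Uqcrh (0.088 and 0.023) did not pass in either. Against wild type, Col4a3-/-OPN-/- hearts had a complex III median of -0.089, with 6 of 8 genes negative.

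Complex IV had 12 of 15 genes positive in Col4a3-/- minus wild type (median 0.047) and 13 of 15 negative in Col4a3-/-OPN-/- minus Col4a3-/- hearts (median -0.14). The medians over all tested probe sets were -0.023 and 0.043. Both comparisons share the Col4a3-/- hearts, so a high value there enters both with opposite sign. Leaving out Col4a3-/- replicate 1 gave complex IV medians of -0.023 and -0.033. In this second comparison 5.03% of all tested probe sets were lower at an unadjusted p under 0.05, and so were 5 of 43 members (11.6%), 3 of them in complex IV. No member was higher at that level, against 8.58% of all. Against wild type, Col4a3-/-OPN-/- hearts had a median of -0.048. When the Y-linked signal entered the fit as a term for sex there were 0 lower and 1 higher member, and the complex IV median of Col4a3-/- minus wild type was -0.015. Without Col4a3-/- replicate 1 there were 0 lower and 1 higher member at an unadjusted p under 0.05. Without Col4a3-/-OPN-/- replicate 1 there were 0 and 0. After renewed quantile normalization there were 3 lower and 2 higher, and with centred arrays 2 lower and 0 higher. The count and its direction thus depended on those hearts, on the sex term and on the scaling. The complex IV median of Col4a3-/-OPN-/- minus Col4a3-/- hearts stayed negative under all 19 alternatives (-0.17 to -0.033). It was -0.087 with the Y-linked term.

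Cox8a, the isoform of subunit 8 found in most tissues, was the one member with an unadjusted p under 0.05 in more than 1 comparison. It had 10.78, 10.90 and 10.90 in wild type, 11.09, 11.15 and 11.005 in Col4a3-/- and 10.80, 10.95 and 10.87 in Col4a3-/-OPN-/- hearts. Every Col4a3-/- heart lay above every heart of both other genotypes. The log2 difference was 0.22 (SE 0.091, 95% interval 0.017 to 0.42, limma adjusted p = 0.564) in Col4a3-/- minus wild type and -0.21 (SE 0.091, 95% interval -0.41 to -0.0065, limma adjusted p = 0.358) in Col4a3-/-OPN-/- minus Col4a3-/- hearts, which again share the Col4a3-/- hearts, and 0.010 between the outer genotypes. Its difference from wild type lay between 0.18 and 0.26 when any 1 heart was left out, but its unadjusted p rose above 0.05 in 6 of these 9 fits.

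Cox6a1, the broadly expressed isoform of subunit 6a, had 11.76, 11.81 and 11.55 in wild type, 11.86, 12.02 and 11.70 in Col4a3-/- and 11.49, 11.78 and 11.53 in Col4a3-/-OPN-/- hearts. It was highest in Col4a3-/- replicate 2, and the groups overlapped. Its log2 difference in Col4a3-/-OPN-/- minus Col4a3-/- was -0.26 (SE 0.12, 95% interval -0.52 to -0.00030, limma adjusted p = 0.367). Cox7b, a small subunit, had 10.68, 11.06 and 11.04 in wild type, 11.11, 10.86 and 10.95 in Col4a3-/- and 10.23, 10.55 and 10.90 in Col4a3-/-OPN-/- hearts. Wild type and Col4a3-/- hearts overlapped, and Col4a3-/-OPN-/- replicates 1 and 2 lay below all of them. The log2 difference was -0.41 (SE 0.17, 95% interval -0.78 to -0.045, limma adjusted p = 0.332) in Col4a3-/-OPN-/- minus Col4a3-/- hearts and -0.37 (SE 0.17, 95% interval -0.74 to 0.0020, limma adjusted p = 0.999) against wild type, the lowest member value in both. The former was -0.58 without Col4a3-/-OPN-/- replicate 3 and -0.25 without Col4a3-/-OPN-/- replicate 1 (limma adjusted p = 0.287 and 0.700), and the latter -0.20 without Col4a3-/-OPN-/- replicate 1. A second, dimmer probe set of Cox7b had 6.27, 6.31 and 6.26 in wild type, 6.29, 6.24 and 6.37 in Col4a3-/- and 6.16, 6.44 and 6.09 in Col4a3-/-OPN-/- hearts. Its differences were -0.072 (limma adjusted p = 0.827) and -0.052 (0.999).

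**Figure D3:**
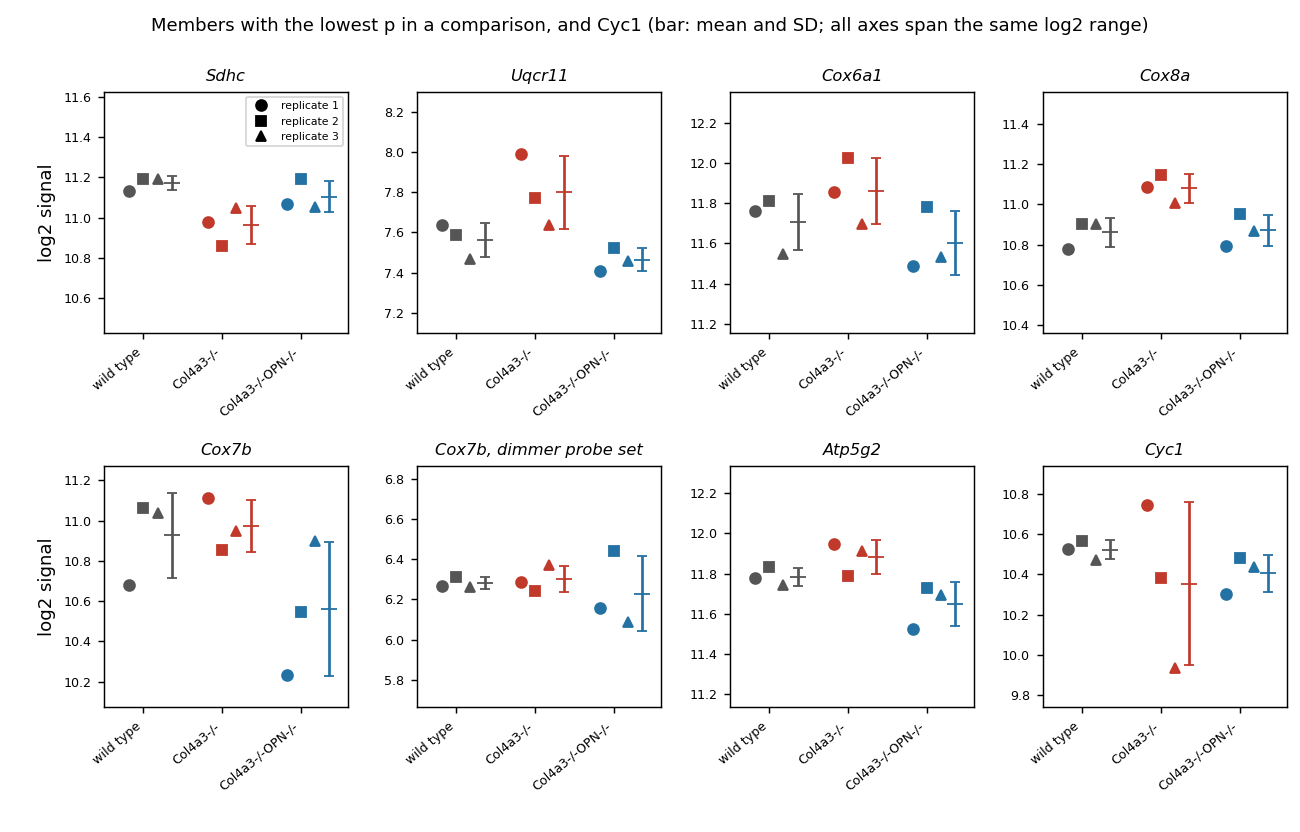
Log2 signal in each heart (symbols mark the replicate) with the mean and SD of 3 hearts for the members with the smallest p, both probe sets of Cox7b, and Cyc1. Every Col4a3-/- heart is above every other heart for Cox8a and below every other heart for Sdhc. For Cox7b, Col4a3-/-OPN-/- replicate 1 is below every wild type and Col4a3-/- heart at both probe sets, by less at the dimmer. The other Col4a3-/-OPN-/- hearts differ between the probe sets. Replicate 2 is below those hearts at the brighter (10.55) but above every other heart at the dimmer (6.44). Replicate 3 is the highest of its genotype at the brighter (10.90) and the lowest of all hearts at the dimmer (6.09).

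The isoform pairs of complex IV were compared within each heart, as the log2 signal of one isoform minus that of the other, which shows unequal change and not which isoform moved. For Cox8b (the muscle isoform) minus Cox8a, every heart of both mutant genotypes was below every wild type heart, with mean differences of -0.21 in Col4a3-/- and -0.18 in Col4a3-/-OPN-/- hearts. Cox8b itself had 11.64, 11.73 and 11.73 in wild type, 11.85, 11.71 and 11.56 in Col4a3-/- and 11.37, 11.63 and 11.59 in Col4a3-/-OPN-/- hearts. It was at 0.0065 in Col4a3-/- minus wild type and at -0.17 in Col4a3-/-OPN-/- minus wild type, where the groups did not overlap (limma adjusted p = 0.990 and 0.999). For Cox6a2 (the muscle isoform) minus Cox6a1, Col4a3-/- hearts were -0.12 from wild type with overlap, and every Col4a3-/-OPN-/- heart was above every Col4a3-/- heart, by 0.21 on average. Cox6a2 had 12.47, 12.55 and 12.47 in wild type, 12.61, 12.52 and 12.45 in Col4a3-/- and 12.36, 12.57 and 12.52 in Col4a3-/-OPN-/- hearts. For Cox7a1 (the muscle isoform) minus Cox7a2 all groups overlapped (-0.16 in Col4a3-/- minus wild type). Cox7a1 had 11.89, 12.18 and 12.13 in wild type, 12.25, 11.89 and 11.83 in Col4a3-/- and 11.74, 12.03 and 11.97 in Col4a3-/-OPN-/- hearts, and Cox7a2 had 10.55, 10.53 and 10.53 in wild type, 10.89, 10.41 and 10.58 in Col4a3-/- and 10.24, 10.64 and 10.59 in Col4a3-/-OPN-/- hearts. For Cox6b1 (the common isoform) minus Cox6b2 (known as the testis isoform) all groups overlapped. The mean differences were -0.042 in Col4a3-/- minus wild type, -0.31 in Col4a3-/-OPN-/- minus Col4a3-/- and -0.35 in Col4a3-/-OPN-/- minus wild type. These differences within hearts are a description and were not tested, and no share of such separations over other gene pairs was taken.

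Cox4i1 encodes the common isoform of subunit 4, and Cox4i2 the isoform of lung and vascular cells that is linked to low oxygen. Cox4i1 had 10.97, 11.07 and 11.08 in wild type, 11.31, 11.13 and 11.15 in Col4a3-/- and 11.04, 11.14 and 11.03 in Col4a3-/-OPN-/- hearts, where every Col4a3-/- heart lay above every wild type heart (log2 difference 0.16, limma adjusted p = 0.663). Cox4i2 had 6.41, 6.43 and 6.73 in wild type, 6.60, 6.30 and 6.07 in Col4a3-/- and 6.50, 6.50 and 6.46 in Col4a3-/-OPN-/- hearts, with differences of -0.20 (SE 0.15, 95% interval -0.54 to 0.14, limma adjusted p = 0.757) in Col4a3-/- minus wild type and 0.16 in Col4a3-/-OPN-/- minus Col4a3-/- hearts (adjusted p = 0.668). Its difference from wild type was -0.34 without Col4a3-/- replicate 1 and -0.073 without Col4a3-/- replicate 3, and that between the mutant genotypes 0.30 without Col4a3-/- replicate 1 and 0.038 without Col4a3-/- replicate 3. Cox4i1 minus Cox4i2 was higher in every Col4a3-/- heart than in any other heart, by 0.36 on average against wild type. The 4 smooth muscle markers were low in the same hearts (mean level 7.04 to 7.55 in Col4a3-/-, 8.30 to 8.46 in wild type and 8.15 to 8.42 in Col4a3-/-OPN-/-), and their part in the Cox4i2 values was not tested. Cox6b2, known as the testis isoform of subunit 6b, had 6.13, 5.85 and 5.77 in wild type, 6.11, 6.09 and 5.96 in Col4a3-/- and 5.94, 6.39 and 6.28 in Col4a3-/-OPN-/- hearts. It had the highest member value in Col4a3-/-OPN-/- minus wild type, at 0.29 (SE 0.15, 95% interval -0.037 to 0.61, limma adjusted p = 0.999), with overlap, and was 0.19 without Col4a3-/-OPN-/- replicate 2, while the common isoform Cox6b1 was at -0.063, with 10.78, 10.998 and 10.90 in wild type, 11.24, 10.77 and 10.96 in Col4a3-/- and 10.73, 10.84 and 10.93 in Col4a3-/-OPN-/- hearts. Its close relatives in tissue range, Cox7b2 and Cox8c, stayed at 4.43 and 4.64 on average over the 9 hearts, below the level required for testing.

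**Figure D4:**
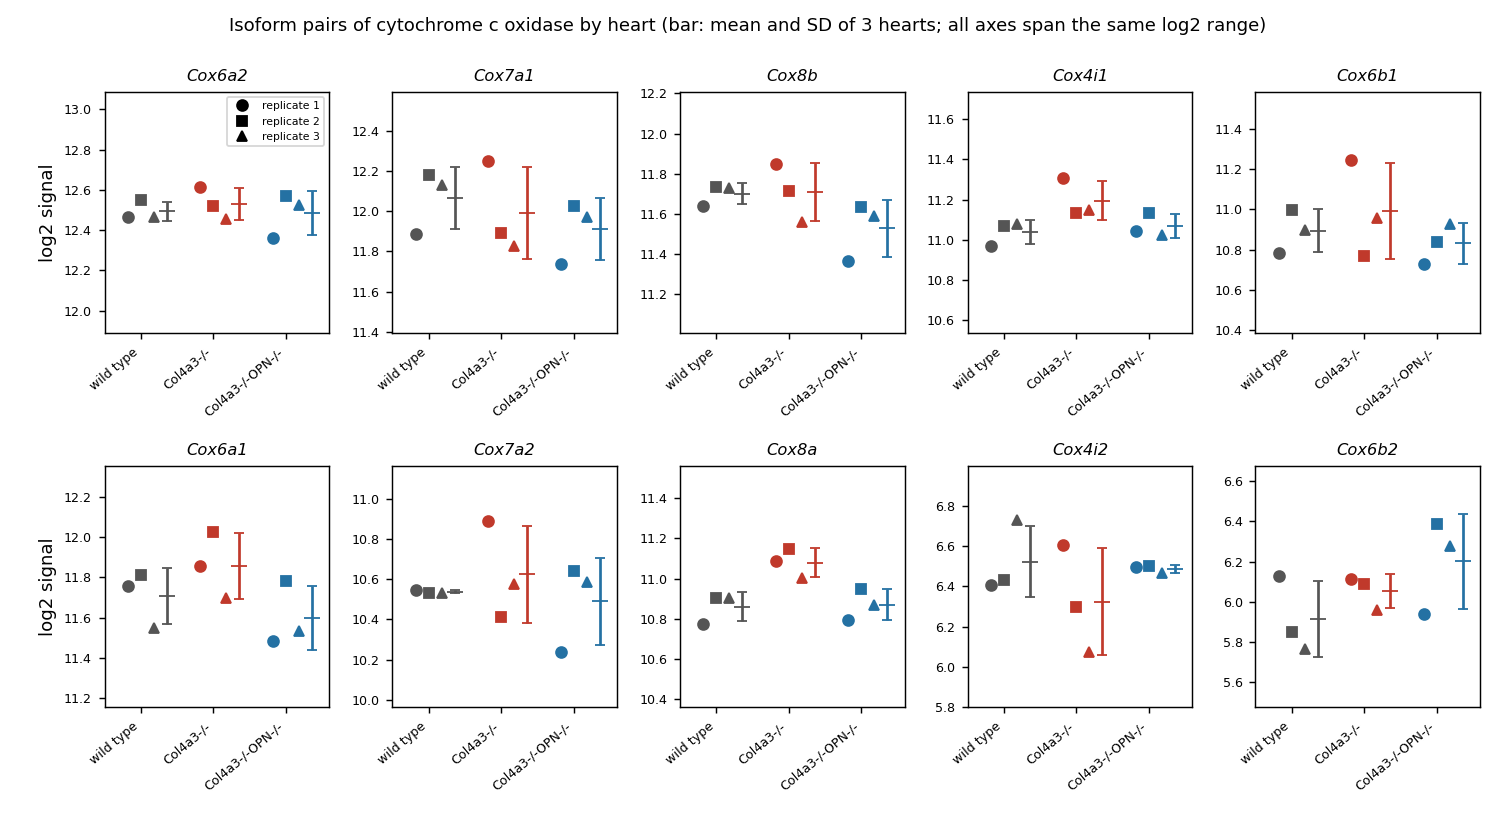
Log2 signal of 5 pairs of complex IV isoforms in each heart (symbols mark the replicate), with the mean and SD of 3 hearts per genotype; the upper row holds the isoforms dominant in heart or in most tissues and the lower row their partners. Cox8a and Cox4i1 are higher in all Col4a3-/- hearts than in all wild type hearts, while the muscle isoforms Cox6a2, Cox7a1 and Cox8b overlap between these genotypes.

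The remaining complex IV genes had differences near 0 or overlapping groups. Cox5a, an early-assembling subunit, was at 0.0080, -0.012 and -0.0037 in the 3 comparisons in the order above. Cox5b was at 0.045, -0.16 and -0.11, Cox7a2l at -0.0041, -0.0065 and -0.011, and the dim Cox7c, whose mean of 5.56 lay just above the filter, at 0.11, -0.16 and -0.050. None passed in any comparison.

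ATP synthase had 16 tested genes, and none passed. Atp5b, the catalytic beta subunit, had 12.73, 12.82 and 12.79 in wild type, 12.78, 12.69 and 12.84 in Col4a3-/- and 12.70, 12.77 and 12.78 in Col4a3-/-OPN-/- hearts, and its 95% interval was -0.16 to 0.14 for Col4a3-/- minus wild type and -0.17 to 0.13 for Col4a3-/-OPN-/- minus Col4a3-/- hearts. Atp5a1, the alpha subunit, had 12.67, 12.69 and 12.72 in wild type, 12.74, 12.67 and 12.61 in Col4a3-/- and 12.80, 12.73 and 12.73 in Col4a3-/-OPN-/- hearts, and every Col4a3-/-OPN-/- heart was above every wild type heart, by 0.059 (limma adjusted p = 0.999). The other F1 genes Atp5c1 (-0.15 and 0.028 in the first and second comparison), Atp5d (-0.11 and 0.044) and Atp5e (-0.053 and 0.12) did not pass either.

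The 3 genes of the membrane c ring encode the same mature protein, and each was measured by its own probe set. Atp5g1 had 6.73, 6.44 and 6.90 in wild type, 6.87, 6.19 and 6.29 in Col4a3-/- and 6.35, 7.002 and 6.56 in Col4a3-/-OPN-/- hearts. The groups overlapped, and the log2 difference was -0.24 (SE 0.22, 95% interval -0.73 to 0.24, limma adjusted p = 0.788) in Col4a3-/- minus wild type, the lowest member value of that comparison, and 0.19 in Col4a3-/-OPN-/- minus Col4a3-/- hearts, the highest. The former was -0.45 without Col4a3-/- replicate 1 and -0.11 without Col4a3-/- replicate 2, and the latter 0.0064 without Col4a3-/-OPN-/- replicate 2 and 0.40 without Col4a3-/- replicate 1. Atp5g2 had 11.78, 11.83 and 11.74 in wild type, 11.95, 11.79 and 11.91 in Col4a3-/- and 11.53, 11.73 and 11.70 in Col4a3-/-OPN-/- hearts. All Col4a3-/-OPN-/- hearts lay below all hearts of both other genotypes, at -0.23 (SE 0.086, 95% interval -0.42 to -0.044, limma adjusted p = 0.303) from Col4a3-/- hearts and -0.13 from wild type (adjusted p = 0.999). A second probe set of Atp5g2 had -0.19 and -0.079 in these comparisons, with overlap. Atp5g3 was at 0.017, 0.099 and 0.12 in the 3 comparisons.

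Several stalk and membrane subunits of ATP synthase were high in Col4a3-/- replicate 1. Atp5o, which joins the stalk to the F1 head, had 6.99, 6.68 and 6.60 in wild type, 7.43, 6.69 and 6.83 in Col4a3-/- and 6.82, 7.06 and 6.75 in Col4a3-/-OPN-/- hearts. Its log2 difference in Col4a3-/- minus wild type was 0.23 (SE 0.20, 95% interval -0.21 to 0.67, limma adjusted p = 0.778), with Col4a3-/- replicate 1 above every other heart. It was 0.0030 without Col4a3-/- replicate 1 (limma adjusted p = 0.997) and 0.37 without Col4a3-/- replicate 2. Atp5l, a subunit of the membrane part, had 10.83, 10.96 and 10.80 in wild type, 11.39, 10.69 and 10.90 in Col4a3-/- and 10.80, 10.85 and 10.98 in Col4a3-/-OPN-/- hearts. Atp5mpl, a small protein of the same part, had 10.66, 10.81 and 10.85 in wild type, 11.11, 10.55 and 10.58 in Col4a3-/- and 10.51, 10.52 and 10.77 in Col4a3-/-OPN-/- hearts. Both were highest in Col4a3-/- replicate 1. Atp5mpl had the next lowest member value in Col4a3-/-OPN-/- minus wild type after Cox7b, at -0.17 (SE 0.15, 95% interval -0.51 to 0.16, limma adjusted p = 0.999). It was -0.21 without Col4a3-/- replicate 1 in Col4a3-/- minus wild type, where it was -0.025 with all hearts. The other members, Atp5pb, Atp5h, Atp5j, Atp5k and Atp5md, lay between -0.14 and 0.060 over all comparisons.

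**Figure D5:**
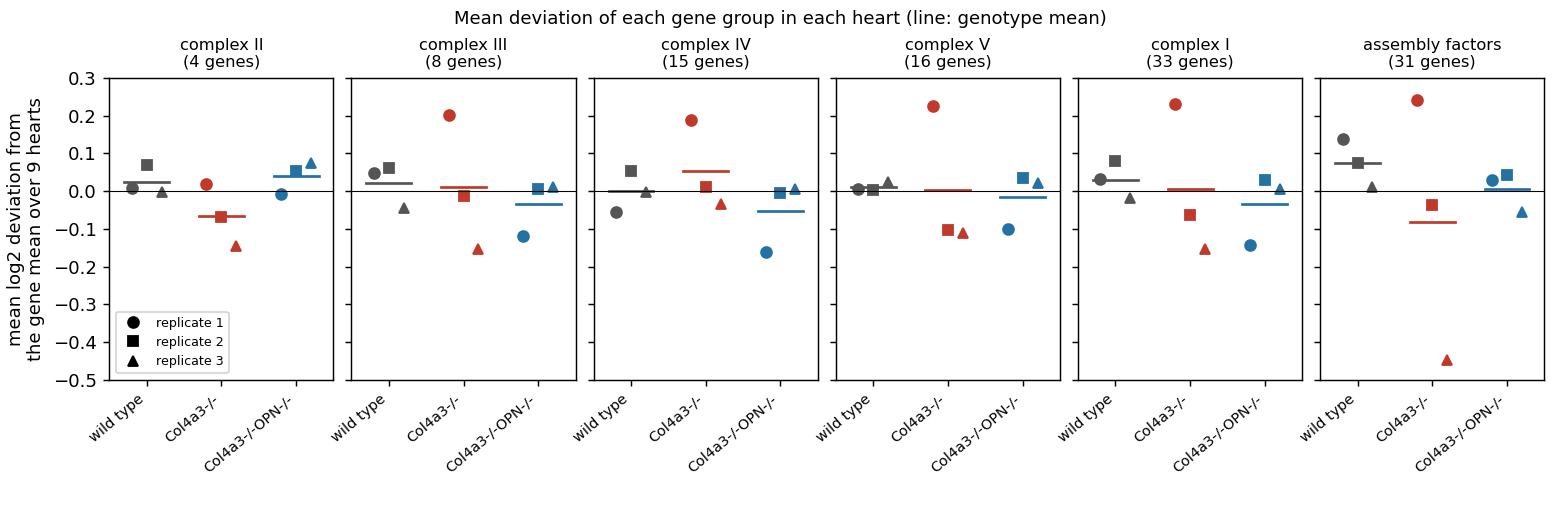
Mean log2 deviation from the gene mean, over the genes of each complex and of 2 further groups, in each heart (symbols mark the replicate; lines mark genotype means). Col4a3-/- replicate 1 is the highest heart in complexes III, IV and V, in complex I and among assembly factors. It is not the highest in complex II, where Sdhb and Sdhd were high in that heart and Sdha and Sdhc low.

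Promoters of nuclear respiratory genes are known for sites of NRF1, of ETS factors such as GABP, of YY1 and of ERR receptors. Promoters were given for 35 of the 48 members (38 start sites, each with 250 bases before and 50 after the start, from RefSeq, build GRCm38.p6), and both strands were searched for 1 short core of each, as in all 32851 promoters of that length. The ETS core CCGGAAG was in 13 of 38 (34.2%, against 8.86% of all), the NRF1 core GCATGCG in 8 of 38 (21.1%, against 3.58% of all), the ERR core AAGGTCA in 5 of 38 (13.2%, against 4.72% of all) and the YY1 core AAGATGG in 4 of 38 (10.5%, against 6.34% of all). At least 1 core was in 19 of 38 (50%, against 21.4% of all). A match describes the letters in the window and is not evidence of binding. The promoters of Cox8a, Uqcr11 and Atp5g2 are shown because these members had p under 0.05 and groups without overlap, and that of Cox8b because it is the muscle partner of Cox8a. Sdhc met the same rule and is not shown, because no promoter was given for it. All read 5′ to 3′ on the strand of the gene, capitals mark the matches, and the NRF1 core and its reverse complement overlap in the capitals of Uqcr11 and Atp5g2.
Cox8a (chr19:7217567-7217866, GRCm38.p6, minus strand): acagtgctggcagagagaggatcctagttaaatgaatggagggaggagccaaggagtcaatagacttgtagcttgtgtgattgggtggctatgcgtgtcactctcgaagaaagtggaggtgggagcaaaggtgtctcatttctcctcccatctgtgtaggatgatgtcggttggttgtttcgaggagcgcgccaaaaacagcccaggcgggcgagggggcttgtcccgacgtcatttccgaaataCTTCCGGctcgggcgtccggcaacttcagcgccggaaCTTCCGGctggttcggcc
Cox8b (chr7:140900397-140900696, GRCm38.p6, minus strand): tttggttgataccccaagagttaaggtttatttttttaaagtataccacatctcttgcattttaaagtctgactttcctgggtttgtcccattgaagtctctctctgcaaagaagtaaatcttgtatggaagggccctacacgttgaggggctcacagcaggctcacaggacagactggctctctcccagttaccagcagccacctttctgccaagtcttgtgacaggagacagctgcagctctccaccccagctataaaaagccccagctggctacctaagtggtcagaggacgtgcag
Uqcr11 (chr10:80406772-80407071, GRCm38.p6, minus strand): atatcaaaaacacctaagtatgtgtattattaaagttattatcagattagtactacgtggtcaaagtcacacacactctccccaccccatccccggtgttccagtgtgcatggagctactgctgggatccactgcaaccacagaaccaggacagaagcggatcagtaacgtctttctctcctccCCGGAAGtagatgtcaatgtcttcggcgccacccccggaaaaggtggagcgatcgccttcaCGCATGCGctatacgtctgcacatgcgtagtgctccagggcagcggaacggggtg
Atp5g2 (chr15:102670998-102671297, GRCm38.p6, minus strand): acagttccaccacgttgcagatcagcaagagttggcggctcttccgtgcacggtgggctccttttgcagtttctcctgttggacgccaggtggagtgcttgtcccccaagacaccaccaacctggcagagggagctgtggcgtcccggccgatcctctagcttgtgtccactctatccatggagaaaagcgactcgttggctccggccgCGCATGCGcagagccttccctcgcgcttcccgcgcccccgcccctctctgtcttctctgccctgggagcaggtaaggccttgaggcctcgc
The Cox8a promoter holds the ETS core at 2 places near the start site, that of Uqcr11 holds an ETS core and an NRF1 site, that of Atp5g2 an NRF1 site, and that of Cox8b none of the 4 cores.

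Other genes of the pathway were read from lists of assembly factors, partners, regulators and complex I subunits. Of 35 listed assembly factors of complexes II to V, 31 were measured, and 0 passed in any comparison. Their median was -0.18 in Col4a3-/- minus wild type with 26 of 31 negative, 0.091 in Col4a3-/-OPN-/- minus Col4a3-/- hearts and -0.070 in Col4a3-/-OPN-/- minus wild type. Their mean deviation was 0.24, -0.036 and -0.45 in Col4a3-/- replicates 1 to 3, and Col4a3-/- replicate 3 was far below the other hearts. Without Col4a3-/- replicate 3 the median of Col4a3-/- minus wild type was 0.053 and that of Col4a3-/-OPN-/- minus Col4a3-/- hearts -0.089, and without Col4a3-/- replicate 1 they were -0.34 and 0.27. The lowest p belonged to Cox15, an enzyme of heme A synthesis for complex IV, at -0.44 (SE 0.14, 95% interval -0.74 to -0.14, limma adjusted p = 0.461) in Col4a3-/- minus wild type. Complex I, the other proton pump, had a median of -0.016 over 33 subunit genes in Col4a3-/- minus wild type and -0.033 in Col4a3-/-OPN-/- minus Col4a3-/- hearts, with 0 called. Those medians were -0.15 and 0.071 without Col4a3-/- replicate 1. Complex I shared the pattern by heart, with mean deviations of 0.23 in Col4a3-/- replicate 1 and -0.14 in Col4a3-/-OPN-/- replicate 1.

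Of 14 regulators of nuclear respiratory genes, all were measured and 0 passed. Their median was 0.026 in Col4a3-/- minus wild type, with 9 positive and 5 negative. It was 0.016 in Col4a3-/-OPN-/- minus Col4a3-/- hearts and 0.039 in Col4a3-/-OPN-/- minus wild type. Ppargc1a, the coactivator that drives mitochondrial biogenesis, had 10.02, 10.28 and 10.65 in wild type, 9.73, 10.14 and 9.44 in Col4a3-/- and 10.26, 9.99 and 10.23 in Col4a3-/-OPN-/- hearts, at -0.55 (SE 0.20, 95% interval -0.98 to -0.11, limma adjusted p = 0.506) in Col4a3-/- minus wild type and 0.39 in Col4a3-/-OPN-/- minus Col4a3-/- hearts (adjusted p = 0.420). The latter was 0.22 without Col4a3-/- replicate 3, and the former -0.73 without Col4a3-/- replicate 2 and -0.38 without wild type replicate 3. Nrf1, which binds the promoters of many subunit genes, had 6.31, 6.29 and 6.26 in wild type, 6.47, 6.49 and 6.76 in Col4a3-/- and 6.52, 6.49 and 6.43 in Col4a3-/-OPN-/- hearts. Every heart of both mutant genotypes lay above every wild type heart. Of all tested probe sets, 4.58% lay wholly above wild type in Col4a3-/- hearts and 7.55% in Col4a3-/-OPN-/- hearts. The Nrf1 difference of Col4a3-/- from wild type was 0.28 (SE 0.12, 95% interval 0.013 to 0.55, limma adjusted p = 0.576), and 0.19 without Col4a3-/- replicate 3. Tfam, needed for the mitochondrial genome, was at 0.27 and 0.30 in Col4a3-/-OPN-/- hearts against Col4a3-/- and against wild type (0.13 and 0.17 without Col4a3-/-OPN-/- replicate 1), and the nuclear receptor gene Esrra at 0.017 in Col4a3-/- minus wild type. The regulators averaged -0.15 in Col4a3-/- replicate 1, the lowest of the 9 hearts, where the members were highest. Among 11 measured partners of the complexes, of which Atp5md and Atp5mpl are members, cytochrome c (Cycs) was at -0.090, the complex IV subunit gene Ndufa4 at -0.022 and the ATP synthase inhibitor gene Atpif1 at -0.16 in Col4a3-/- minus wild type, and 0 passed. No probe set with a single symbol carried 1 of the 6 listed subunit genes of the mitochondrial genome, which were not analysed here.

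Several members could be read from more than 1 probe set or not from a single-symbol one. Besides Cox7b and Atp5g2, a second probe set was present for Atp5d, Atp5e, Atp5h and Cox5b. The 2 of Cox5b had -0.16 and -0.34 in Col4a3-/-OPN-/- minus Col4a3-/- hearts. The second of Atp5d had 9.88, 9.28 and 9.05 in wild type, 9.87, 9.69 and 9.58 in Col4a3-/- and 7.33, 9.73 and 9.40 in Col4a3-/-OPN-/- hearts, so Col4a3-/-OPN-/- replicate 1 was more than 1 log2 unit below every other heart there, while its first probe set had 9.94 in that heart and 9.94 to 10.16 in the others. Cox6c and Uqcr10 share their probe sets with a second symbol and were outside the members: in Col4a3-/- minus wild type the probe sets of Cox6c had 0.021 and 0.045 and that of Uqcr10 0.10. The members too dim for testing were Uqcrh-ps1, Cox7b2, Cox8c, Atp5c1-ps and Atp5j2, with means over the 9 hearts from 4.43 to 4.93. Just inside the filter were Cox7c at 5.56 and Cox6b2 at 6.06.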

How the data were processed

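RNA of 9 hearts, 1 array each, was measured on a mouse gene array. The authors deposited log2 values per probe set summarized by RMA, per the submitters' processing notes, with the version not given in the sources used here. RMA includes quantile normalization over arrays, so a change shared by most genes would be removed before deposit. The labels' protocols describe a labelling kit sold for small RNA, although the platform is annotated as a gene array, so the labelling is uncertain. Of 33793 probe sets, GEO's platform annotation gave 23521 a single symbol, 1814 several and 8458 none. Single-symbol probe sets with a mean above 5.21 were tested with limma 3.58.1 in R 4.3.3 (lmFit over all 9 hearts, eBayes with trend, 3 contrasts), with Benjamini-Hochberg adjustment over 13650 probe sets and a threshold of 0.05. The comparisons share groups, so their values are not independent. The fit was tested on simulated data. It recovered 28%, 22% and 26% of changes of 0.5 log2 units in the 3 comparisons, so most changes of that size were missed. For changes of 1 log2 unit it recovered 80%, 86% and 78%. The number of arrays limits the precision. The labels do not say whether mice of a group were littermates, so the hearts may not be independent. The p-values set each difference against the spread between these hearts within genotypes. The members, the lists of other genes and the term for sex were chosen with earlier results of these data known. Named with all 9 values were the 3 members with the smallest p, the 2 highest and the 2 lowest of each comparison, and the isoform pairs; every other value given for a member or list gene was chosen after values were seen, as was leaving out hearts for the lists of other genes.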

Additional observations from a re-analysis of the deposited data

How the results depend on the processing

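Member calls stayed at 0 in all 3 comparisons under each of the 19 alternatives run (2 scalings, 2 filters, 2 ways of moderating the variance, array weights, a fit on only the arrays compared, the replicate block, the Y-linked covariate and leaving out each heart), and the smallest adjusted p of a member was 0.259 in Col4a3-/- minus wild type, 0.182 in Col4a3-/-OPN-/- minus Col4a3-/- and 0.625 in Col4a3-/-OPN-/- minus wild type. In Col4a3-/- minus wild type, calls over all probe sets went from 0 to 1 with centred arrays, the stricter filter, eBayes without trend, robust eBayes and the Y-linked covariate, and to between 0 and 6 when 1 heart was left out (6 without Col4a3-/- replicate 2, 4 without Col4a3-/- replicate 1). In Col4a3-/-OPN-/- minus Col4a3-/-, calls over all went from 6 to 2 with the stricter filter, 2 with array weights, 0 with the replicate block and 0 with the Y-linked covariate, and to between 0 (without Col4a3-/-OPN-/- replicate 1) and 22 (without Col4a3-/- replicate 2). Between Col4a3-/-OPN-/- and wild type hearts they went from 0 to 1 with array weights and 1 with the Y-linked covariate, and to between 0 and 3. The count of members at an unadjusted p under 0.05 in Col4a3-/- minus wild type went from 2 to 1 with centred arrays, 0 with eBayes without trend, 0 with only the arrays compared and 1 with the replicate block, and ranged from 0 to 3 when 1 heart was left out. In Col4a3-/-OPN-/- minus Col4a3-/- it went from 5 to 2 with centred arrays, 2 with eBayes without trend, 3 with array weights, 2 with only the arrays compared and 1 with the Y-linked covariate, and ranged from 0 (without Col4a3-/-OPN-/- replicate 1) to 6 (without Col4a3-/- replicate 3). Between Col4a3-/-OPN-/- and wild type hearts it went from 0 to 1 without the filter, 1 with array weights and 1 with the replicate block, and ranged from 0 to 2. The median member difference ranged from -0.069 to 0.060, from -0.086 to 0.076 and from -0.051 to -0.0015 over the hearts left out. Of 47 named differences, 16 changed sign under at least 1 alternative. For these differences the alternatives also included averaging the single-symbol probe sets of each gene. The cause of these shifts was not tested. The replicate numbers were used as a block only as an alternative, since same-numbered hearts of different genotypes had correlations of deviations from -0.19 to 0.23 over probe sets. Signal limits the reading of dim members, 5 of which were not tested.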

Other observations

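The 11 measured partners of complexes II to V, of which Atp5md and Atp5mpl are members, had a mean deviation of 0.17 in Col4a3-/- replicate 1, -0.16 in Col4a3-/- replicate 3 and -0.070 in Col4a3-/-OPN-/- replicate 1. With limma, 0 of them were called in any comparison, and 0 had an unadjusted p under 0.05. Among assembly factors, Lyrm7, which acts on the Rieske protein of complex III, had 6.04, 6.63 and 5.82 in wild type, 5.87, 5.88 and 5.06 in Col4a3-/- and 6.38, 6.43 and 5.81 in Col4a3-/-OPN-/- hearts, with a difference of 0.60 (SE 0.27, 95% interval 0.0067 to 1.20, limma adjusted p = 0.364) in Col4a3-/-OPN-/- minus Col4a3-/- hearts. It was 0.33 without Col4a3-/- replicate 3. Cox20, a chaperone of a mitochondrially encoded complex IV subunit, was at -0.40 in Col4a3-/-OPN-/- minus wild type (limma adjusted p = 0.999). In complex I, Ndufa1 was at 0.26 and -0.26 in Col4a3-/- minus wild type and in Col4a3-/-OPN-/- minus Col4a3-/- hearts (adjusted p = 0.542 and 0.326), and Ndufb11 was at -0.41 in the latter (0.366).

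A probe set shared by Uqcrb and the gene model Gm10767 was at 0.14 in Col4a3-/- minus wild type, 0.20 in Col4a3-/-OPN-/- minus Col4a3-/- and 0.34 in Col4a3-/-OPN-/- minus wild type, while the probe set of Uqcrb alone was at -0.044, -0.10 and -0.15. Probe sets with several symbols were not tested.

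The mean level of 4 lung epithelium markers was 5.06 to 5.44 in wild type, 4.97 to 7.70 in Col4a3-/-, 4.91 to 6.33 in Col4a3-/-OPN-/- hearts, highest in Col4a3-/- replicate 2. White fat markers (4 of 5 measured) had 5.52 to 5.84 in wild type, 5.48 to 6.76 in Col4a3-/-, 5.71 to 5.81 in Col4a3-/-OPN-/-, also highest in that heart. Endothelium (5 genes) had 9.22 to 9.29 in wild type, 8.78 to 9.17 in Col4a3-/-, 9.09 to 9.36 in Col4a3-/-OPN-/-, fibroblast markers (5 genes) 8.79 to 8.96 in wild type, 8.25 to 9.37 in Col4a3-/-, 8.77 to 8.96 in Col4a3-/-OPN-/-, macrophage markers (5 genes) 7.23 to 7.48 in wild type, 7.34 to 7.98 in Col4a3-/-, 7.24 to 7.65 in Col4a3-/-OPN-/- and skeletal muscle markers (5 genes) 5.06 to 5.11 in wild type, 5.09 to 5.21 in Col4a3-/-, 5.01 to 5.16 in Col4a3-/-OPN-/-. Only 2 of the 5 skeletal muscle markers, 2 of the 4 lung epithelium markers and 3 of the 4 measured white fat markers passed the filter on dim signal. The skeletal muscle means did not exceed the filter's 5.21 in any heart. The part of all these markers in the members' values was not tested.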
